A study of Mus musculus with 5 samples.

Results

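The 9 genes described here are Adipoq, Cfd, Plin1, Cidec, Cidea, Lipe, Thrsp, Car3 and Adig, all known from fat cells, out of 17818 gene symbols measured by messenger RNA sequencing of whole mouse hearts. They were matched by symbol, and all 9 were found. They had been picked because their levels differed between libraries of the same group, so their levels and the differences between libraries are given as a description. The mice were male and had undergone bone marrow transplantation 12 months earlier, and treatment lasted 2 months. The groups were 2 libraries from animals labelled Tet2+/- given oridonin, a plant diterpenoid, 2 libraries from animals labelled Tet2+/- given vector, and 1 library from a wild-type (WT) animal given vector. The Tet2 product oxidises methyl groups on cytosine in DNA, and the animals model clonal hematopoiesis, in which mutant blood cells expand. The labels attach the genotype to the animal and do not say which cells carry the Tet2 allele, what the recipient was, or whether animals were pooled. The sample titles give other month numbers than the remaining labels, and those numbers served only to tell replicates apart.

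White fat cells store triglyceride in a single large lipid droplet coated with proteins that control the access of lipases, and they secrete hormones such as adiponectin into the blood. Brown fat cells hold many small droplets and burn fat for heat. In the mouse, fat tissue lies on the outside of the heart near the atria and the great vessels, in small amounts. Heart muscle itself burns fatty acids and uses part of the same machinery for droplets and lipolysis.

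The Tet2+/- columns of the deposited table held a blend of both replicates, which was undone before any value below was taken. Whole counts, within 0.01, then returned for 99.92% to 99.94% of genes in those 4 columns. The totals were 14626806 and 14574823 counts in the oridonin libraries, 15535778 and 15334618 in the Tet2+/- vector libraries and 15002794 in the WT library, where 33.5% of genes were whole as deposited. That column may therefore carry a second set of counts not analysed here; it was left as deposited, and each WT value below has this limit. Levels are CPM, counts scaled to these totals, and a count of 0 allows up to 3 counts, or 0.193 to 0.206 CPM. The 12 cardiomyocyte markers summed to 72390 and 79200 CPM in the oridonin libraries, 74060 and 64280 CPM in the Tet2+/- vector libraries and 71160 CPM in the WT library, so heart muscle transcripts were abundant in all 5. Vector replicate 1 stood apart from the other 4 libraries by its atrial transcripts, so the fitted fold changes that rest on it are also given without it. Nothing in the labels says that the samples came from separate animals, so the p-values below measure only the spread between these samples. Intervals are 95% and cover counting error only.

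Car3, Cfd, Adipoq, Plin1 and Cidec, all scarce, had their highest count in vector replicate 1 and their second highest in oridonin replicate 2, while the other 4 genes were lower in these libraries than in their replicates. Adipoq (chromosome 16, 23146536 to 23158028, plus strand, GRCm38) encodes adiponectin, the hormone by which fat cells are most often recognised. It had 1 and 3 counts in the oridonin libraries, 17 and 0 in the Tet2+/- vector libraries and 0 in the WT library. Cfd (chromosome 10, 79890853 to 79892655, plus strand) encodes adipsin, the serine protease that starts the alternative complement pathway and one of the main secreted proteins of mouse fat. It had 1 and 36 counts in the oridonin libraries, 76 and 0 in the Tet2+/- vector libraries and 10.7 in the WT library. Both secreted proteins had their highest count in vector replicate 1 and their second highest in oridonin replicate 2, so the oridonin and vector groups overlapped.

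The lipid droplet proteins of white fat followed the same libraries. Plin1 (chromosome 7, 79720218 to 79732903, minus strand) encodes perilipin 1, which coats the droplet and restrains lipolysis. It had 0 and 9 counts in the oridonin libraries, 24 and 0 in the Tet2+/- vector libraries and 0 in the WT library. Cidec (chromosome 6, 113424634 to 113435760, minus strand) encodes the protein that fuses droplets into a large one. It had 0 and 13 counts in the oridonin libraries, 19 and 3 in the Tet2+/- vector libraries and 1 in the WT library. Car3 (chromosome 3, 14863512 to 14872523, plus strand) encodes a cytosolic carbonic anhydrase that is abundant in fat cells and slow skeletal muscle. It was the best counted of the 5, with 4 and 44 counts in the oridonin libraries, 194 and 5 in the Tet2+/- vector libraries and 5 in the WT library. In CPM this was 0.274 and 3.02 in the oridonin libraries, 12.5 and 0.326 in the Tet2+/- vector libraries and 0.333 in the WT library.

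**Figure D1:**
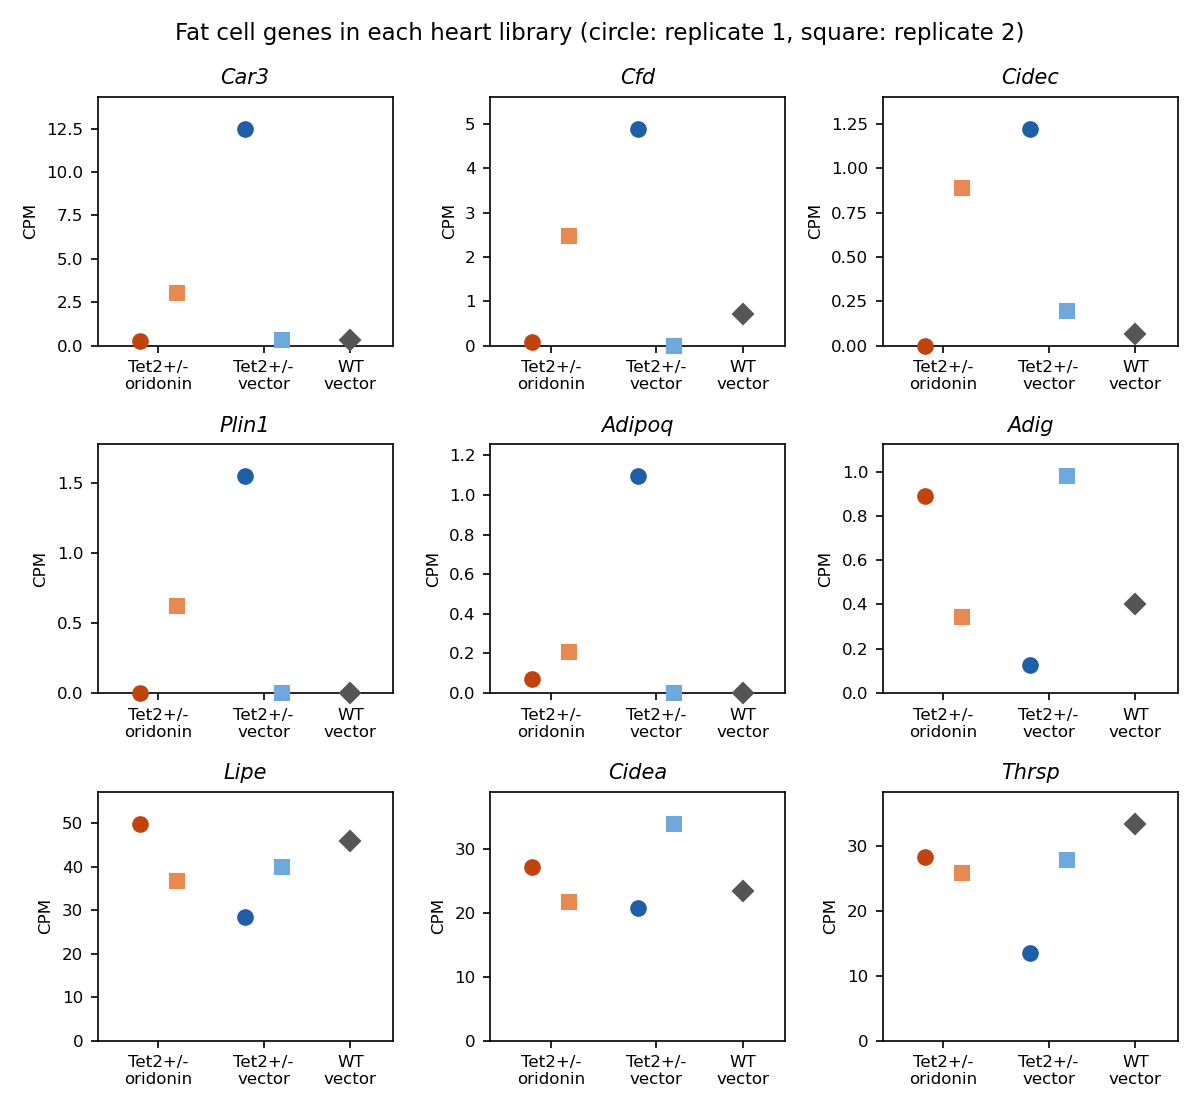
Level of each fat cell gene in CPM (vertical axis, linear from 0, its own scale in each panel) in each library, with oridonin first, then Tet2+/- vector, then WT; points are single libraries. Car3, Cfd, Adipoq, Plin1 and Cidec peak in vector replicate 1, at 12.5 CPM for Car3, while Lipe, Cidea, Thrsp and Adig do not.

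The promoters of 4 of these genes are shown because all 4 had their highest count in vector replicate 1. Of the Cidec windows, the one printed is that with a match to the letters marked. Each window runs from 250 bases before to 50 bases after the start of transcription, in the direction of the gene, from RefSeq on GRCm38.p6. Windows were used for 7 of the 9 genes, 9 in all. Cidea was left out of the search, and no window was found for Car3. Capitals mark a match to TTGCNNAA, a core read by C/EBP factors, which drive fat cell differentiation. The windows are Plin1 at chr7:79732727-79733026 (minus strand), the second start of Cidec at chr6:113434715-113435014 (minus strand), Cfd at chr10:79890603-79890902 (plus strand) and Adipoq at chr16:23146286-23146585 (plus strand).
Plin1: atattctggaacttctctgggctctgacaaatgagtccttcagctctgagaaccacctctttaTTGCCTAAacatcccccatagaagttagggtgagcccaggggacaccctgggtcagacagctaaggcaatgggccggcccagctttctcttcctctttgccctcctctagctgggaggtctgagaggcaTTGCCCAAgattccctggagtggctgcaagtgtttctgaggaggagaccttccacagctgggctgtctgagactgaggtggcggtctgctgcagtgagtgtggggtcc
Cidec: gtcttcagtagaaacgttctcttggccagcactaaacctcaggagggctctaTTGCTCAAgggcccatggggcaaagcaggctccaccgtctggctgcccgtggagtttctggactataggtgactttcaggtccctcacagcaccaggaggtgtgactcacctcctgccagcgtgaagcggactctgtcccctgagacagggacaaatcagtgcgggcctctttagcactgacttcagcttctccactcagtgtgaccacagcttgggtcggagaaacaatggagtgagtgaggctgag
Cfd: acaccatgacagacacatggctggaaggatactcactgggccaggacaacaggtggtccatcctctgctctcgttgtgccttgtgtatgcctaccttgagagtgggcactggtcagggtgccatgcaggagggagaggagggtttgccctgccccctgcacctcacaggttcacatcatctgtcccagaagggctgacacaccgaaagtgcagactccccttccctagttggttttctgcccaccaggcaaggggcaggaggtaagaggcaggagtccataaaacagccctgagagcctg
Adipoq: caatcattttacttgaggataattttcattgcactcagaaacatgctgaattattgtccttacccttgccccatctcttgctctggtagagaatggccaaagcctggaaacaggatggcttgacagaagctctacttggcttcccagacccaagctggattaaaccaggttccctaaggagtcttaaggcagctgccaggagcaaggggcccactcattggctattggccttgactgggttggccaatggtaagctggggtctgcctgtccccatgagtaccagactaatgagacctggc
Plin1 held TTGCCTAA 187 bases and TTGCCCAA 58 bases before its start, and the Cidec window held TTGCTCAA 198 bases before its start. The other 7 of the 9 windows, among them those of Cfd, Adipoq and the first start of Cidec, held no match to these letters on either strand. Of 32817 windows of this length, 10.8% held TTGCNNAA. The search also covered AGGTCANAGGTCA with at most 2 mismatches, a direct repeat read by PPAR factors, found in 3.86% of all windows, and TATAAA, found in 13.6%. Neither occurred in the 9 windows, and no match says only that these letters are not there.

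Summed, Car3, Cfd, Adipoq, Plin1 and Cidec had 6 and 105 counts in the oridonin libraries, 330 and 8 in the Tet2+/- vector libraries and 16.7 in the WT library. This grouping of 5 was made after their values were seen. The sum was 40.6 times as high in vector replicate 1 as in vector replicate 2, and 17.6 times as high in oridonin replicate 2 as in oridonin replicate 1. Car3 alone differed 38.3-fold between the vector replicates (interval 16.1 to 119) and 11-fold between the oridonin replicates (4.02 to 42.3). Cfd was at least 25-fold higher in vector replicate 1 than in replicate 2, taking 3 counts for the library at 0, and 36.1-fold higher in oridonin replicate 2 than in replicate 1 (6.08 to 1470). On the same floor, Plin1 was at least 7.9-fold higher in vector replicate 1 and at least 3.01-fold higher in oridonin replicate 2. Cidec was 6.25-fold higher in vector replicate 1 (1.84 to 33) and at least 4.35-fold higher in oridonin replicate 2. The Adipoq ratio between the oridonin replicates, 3.01, had an interval that spans no difference (0.242 to 158). In bulk tissue, fewer cells of a type and less RNA per cell cannot be told apart.

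Between vector replicate 1 and oridonin replicate 2, the ratio was 4.14 for Car3 (2.97 to 5.88), 1.98 for Cfd (1.32 to 3.03), 5.32 for Adipoq (1.54 to 28.3), 2.5 for Plin1 (1.12 to 6.12) and 1.37 for Cidec (0.642 to 3.02). These 5 intervals overlap, but overlap does not decide whether the genes differ in proportion, and that was not tested. The interval of Cidec spans no difference between the libraries. Cfd made up 34.3% of the summed counts in oridonin replicate 2, 23.0% in vector replicate 1 and 64.2% in the WT library, the last from 10.7 counts. Car3 made up 41.9%, 58.8% and 29.9% in those 3 libraries.

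Lipe, Cidea and Thrsp ran the other way and were present in every library. Lipe (chromosome 7, 25379527 to 25398710, minus strand) encodes hormone-sensitive lipase, which releases fatty acids from stored fat in fat cells and also works in heart muscle. It was at 49.8 and 36.8 CPM in the oridonin libraries, 28.5 and 40.0 CPM in the Tet2+/- vector libraries and 45.9 CPM in the WT library. Its lowest value stood in vector replicate 1, where Plin1 was highest, and a link between these levels was not tested. Lipe lies within an antisense transcript, 4732471J01Rik, that had at most 0.48 CPM in any library. Cidea (chromosome 18, 67343604 to 67367785, plus strand) encodes a droplet protein of brown fat that is related to that of Cidec. It was at 27.1 and 21.7 CPM in the oridonin libraries, 20.7 and 33.8 CPM in the Tet2+/- vector libraries and 23.3 CPM in the WT library. The first 500 bases of Cidea overlap B430212C06Rik on the other strand, which had 1.74 to 2.54 CPM, and whether the counting used strand is not stated. Thrsp (chromosome 7, 97412938 to 97417730, minus strand) encodes Spot 14, a thyroid hormone responsive regulator of fatty acid synthesis. It was at 28.2 and 25.8 CPM in the oridonin libraries, 13.5 and 27.8 CPM in the Tet2+/- vector libraries and 33.4 CPM in the WT library. Vector replicate 1 had the lowest value of all 3 genes, although for Cidea its ratio to oridonin replicate 2, 0.956, lay within counting error (0.816 to 1.12).

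Between the vector replicates, the ratio of replicate 1 to replicate 2 was 0.712 for Lipe (0.628 to 0.806), 0.612 for Cidea (0.531 to 0.705) and 0.487 for Thrsp (0.41 to 0.575). Between the oridonin replicates, the ratio of replicate 2 to replicate 1 was 0.738 for Lipe (0.659 to 0.826), 0.799 for Cidea (0.687 to 0.928) and 0.914 for Thrsp (0.792 to 1.05). Except for Thrsp in the oridonin pair, these differences exceeded counting error. Summed, the 3 genes were at 105 and 84.3 CPM in the oridonin libraries, 62.7 and 102 CPM in the Tet2+/- vector libraries and 103 CPM in the WT library. Adig (chromosome 2, 158502612 to 158508198, plus strand) encodes adipogenin, a small membrane protein of fat cells. It had 13 and 5 counts in the oridonin libraries, 2 and 15 in the Tet2+/- vector libraries and 6 in the WT library. Although named for fat, Adig was thus lowest where Adipoq was highest, at a ratio of 0.132 between vector replicates 1 and 2 (0.0146 to 0.566). The name fat cell genes therefore covers genes that did not move together here, and Lipe, Cidea and Thrsp were read in the hearts in which Adipoq and Plin1 were at 0 counts.

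**Figure D2:**
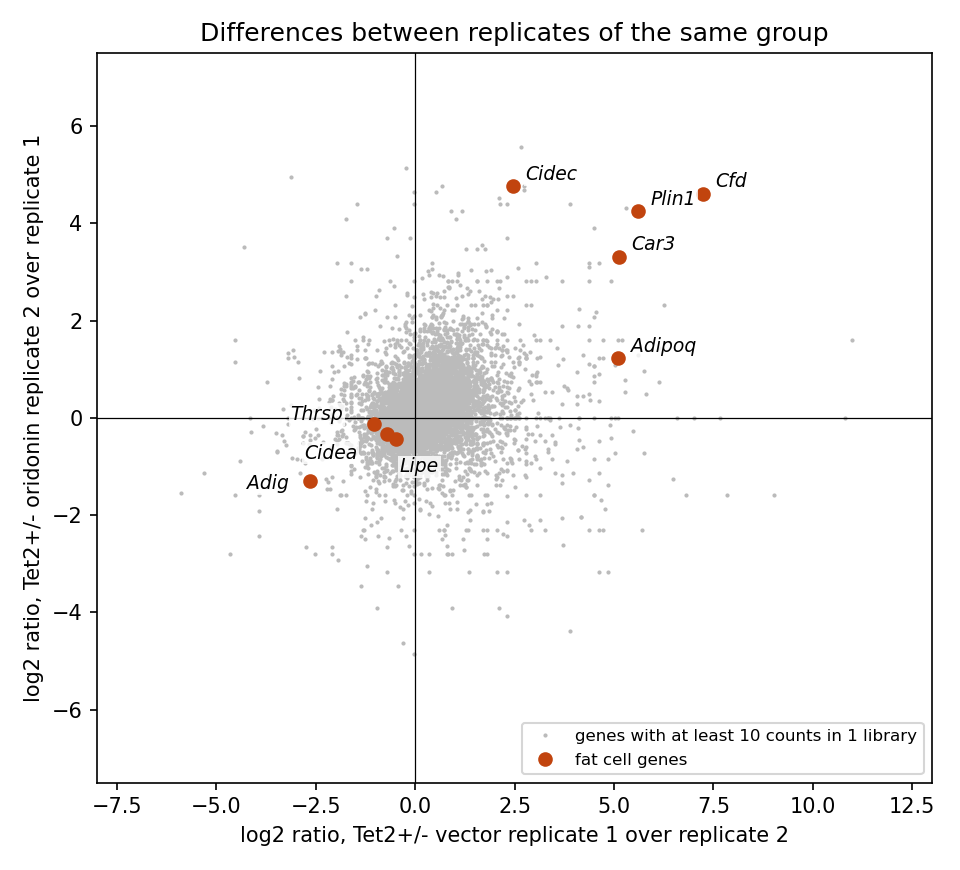
Log2 ratio of Tet2+/- vector replicate 1 over replicate 2 (horizontal) against log2 ratio of oridonin replicate 2 over replicate 1 (vertical), with 0.5 added to each count, for 13893 genes with at least 10 counts in 1 library (grey) and the 9 fat cell genes (orange). Car3, Cfd, Plin1, Cidec and Adipoq lie to the upper right, and Lipe, Cidea, Thrsp and Adig lie to the lower left.

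Among the 13893 genes with at least 10 counts in a library, 42 (0.302%) were at least 4-fold higher both in vector replicate 1 than in replicate 2 and in oridonin replicate 2 than in replicate 1, with 0.5 added to each count. Car3, Cfd, Plin1 and Cidec were 4 of these, and the genes had been picked on such values, so nothing is read from this. In the opposite corner, 3169 genes (22.8%) were lower in both, among them 4 of the 9, Lipe, Cidea, Thrsp and Adig. Other genes in the first corner, named after their values were seen, included H19, an imprinted noncoding RNA, with 41 and 187 counts in the oridonin libraries, 1244 and 52 in the Tet2+/- vector libraries and 23.3 in the WT library. Plagl1, an imprinted zinc finger factor, had 13 and 63 counts in the oridonin libraries, 183 and 10 in the Tet2+/- vector libraries and 15.7 in the WT library.

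Levels of different genes can be set side by side only per length, here as CPM per kilobase of exon. In vector replicate 1 the order ran from Cidea at 18.6 through Thrsp at 6.18, Cfd at 5.31, Lipe at 4.83 and Car3 at 4.36 to Adipoq at 0.792, Cidec at 0.659, Plin1 at 0.332 and Adig at 0.159 CPM per kilobase. Counting intervals overlapped for the neighbours Thrsp and Cfd, Cfd and Lipe, and Lipe and Car3. They also overlapped for Adipoq and Cidec, Cidec and Plin1, and Plin1 and Adig. The order within these pairs was not tested. In vector replicate 2 Cidea was at 30.4, Thrsp at 12.7, Lipe at 6.79, Adig at 1.21, Car3 at 0.114 and Cidec at 0.105 CPM per kilobase, with Cfd, Adipoq and Plin1 at 0 counts. In that library Car3 and Cidec rest on 5 and 3 counts and cannot be ordered, nor can the genes at 0. Cfd and Car3 thus stood at a level per length close to that of Lipe in vector replicate 1 and far below it in vector replicate 2.

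The comparison of oridonin with vector in the Tet2+/- hearts asks what the compound changed. Limma was fitted to all 12734 genes that reached 1 CPM in 2 or more libraries, which kept 5 of the 9, namely Car3, Cfd, Lipe, Cidea and Thrsp. Car3 and Cfd passed that filter only through libraries in which they were high. None of these 5 passed the false discovery rate (FDR) of 0.05, and of all genes 0 (0%) did. At an unadjusted p under 0.05, 331 genes (2.6%) and 0 of the 5 passed, and limma's voom also called 0. The log2 fold change of oridonin over vector was -1.13 for Car3 (SE 1.82) and 0.34 for Cfd (SE 2.57). It was 0.34 for Lipe (SE 0.26), -0.13 for Cidea (SE 0.29) and 0.48 for Thrsp (SE 0.35), and each of the 5 had an adjusted p of 1 in limma. The standard errors of Car3 and Cfd exceed their fold changes, since each group held a high and a low library. Of the 9 genes, 0 had oridonin and vector libraries that did not overlap, where 26.6% of the 13893 genes did. The 9 had been picked for differences within a group, which favours overlap, so nothing is read from this. Without vector replicate 1 the Car3 value was 1.43, and without oridonin replicate 1 it was 0.53, both opposite in sign to the value from all libraries. Without vector replicate 1 the value was -0.04 for Thrsp, 0.1 for Lipe and -0.48 for Cidea. Without vector replicate 2 it was 1.0 for Thrsp, 0.59 for Lipe and 0.23 for Cidea. Without oridonin replicate 1 it was 0.12 for Lipe and -0.29 for Cidea, and without oridonin replicate 2 it was 0.56 for Lipe and 0.04 for Cidea. The Cfd value lay between -3.28, without vector replicate 2, and 3.96, without vector replicate 1.

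The comparison of Tet2+/- vector hearts with the WT heart asks what the Tet2+/- state changed, with 1 WT library that is assumed to vary like the others. Of the 5 tested genes 0 passed, as did 0 (0%) of all genes, while at an unadjusted p under 0.05 the counts were 0 of the 5 and 1221 genes (9.59%). Voom called 0 here as well. Car3 had a log2 fold change of 2.53 (SE 2.23, limma adjusted p = 0.742), carried by vector replicate 1, since vector replicate 2 and WT each had 5 counts. Cfd had -0.9 (SE 3.14, limma adjusted p = 0.942), with WT at 0.716 CPM between the vector libraries at 4.89 and 0 CPM. Thrsp had -0.78 (SE 0.43, limma adjusted p = 0.607), Lipe -0.44 (SE 0.32, limma adjusted p = 0.681) and Cidea 0.18 (SE 0.36, limma adjusted p = 0.892). For Lipe and Thrsp both vector libraries lay below WT. Without vector replicate 1 the value was -0.03 for Car3, -4.52 for Cfd, -0.27 for Thrsp, -0.2 for Lipe and 0.54 for Cidea. Without vector replicate 2 it was 5.09 for Car3, 2.72 for Cfd, -1.3 for Thrsp, -0.69 for Lipe and -0.17 for Cidea. Each fold change against WT thus moved by over 1.5 times, and those of Car3, Cfd and Cidea changed sign, when 1 vector library was left out. For oridonin against WT, 0 of the 5 and 0 (0%) of all genes passed the FDR, 791 genes (6.21%) and 0 of the 5 had an unadjusted p under 0.05, and voom called 0. The fitted log2 fold changes lay between -0.56 for Cfd and 1.4 for Car3, with limma adjusted p from 0.91 to 0.983. Car3 was at 3.06 without oridonin replicate 1 and -0.25 without oridonin replicate 2, and Cfd at 1.74 and -2.87. Lipe was at -0.32 without oridonin replicate 1 and 0.12 without oridonin replicate 2, Cidea at -0.11 and 0.22, and Thrsp at -0.37 and -0.24. All but Thrsp thus changed sign with the library left out. The vector and WT libraries are shared between these comparisons, so they are not independent of each other.

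A list of 46 other genes of fat cells, of which 43 had values, did not show 1 common pattern. Its most abundant genes were Lpl, lipoprotein lipase, Acsl1, which activates fatty acids, Fabp4, a fatty acid carrier that capillary endothelium also makes, and Pnpla2, the first lipase of triglyceride breakdown. Fabp4 was at 645 and 574 CPM in the oridonin libraries, 459 and 684 CPM in the Tet2+/- vector libraries and 515 CPM in the WT library, lowest where Adipoq was highest. The 4 with the widest range were Cyp2e1, Pck1, Rbp4 and Retn. Cyp2e1, a cytochrome P450 best known from liver, had 2 and 49 counts in the oridonin libraries, 140 and 3 in the Tet2+/- vector libraries and 8 in the WT library. Retn, which encodes the fat hormone resistin in the mouse, had 0 and 3 counts in the oridonin libraries, 10 and 0 in the Tet2+/- vector libraries and 0 in the WT library. Pck1, which supplies glycerol for triglyceride in fat cells, had 1 and 4 counts in the oridonin libraries, 18 and 0 in the Tet2+/- vector libraries and 1 in the WT library. These few scarce genes had their highest count in vector replicate 1, as did Rbp4, a retinol carrier, with 13. Of the 37 with at least 10 counts, 17 (45.9%) were higher in both vector replicate 1 and oridonin replicate 2, against 44.7% of all genes. By at least 4-fold in both it was 2 (5.41%), Cyp2e1 and Retn, against 0.302% of all genes. In the fit, 0 of 33 passed in any of the 3 comparisons, and the median log2 fold change of oridonin over vector was -0.05, the same as over all genes.

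**Figure D3:**
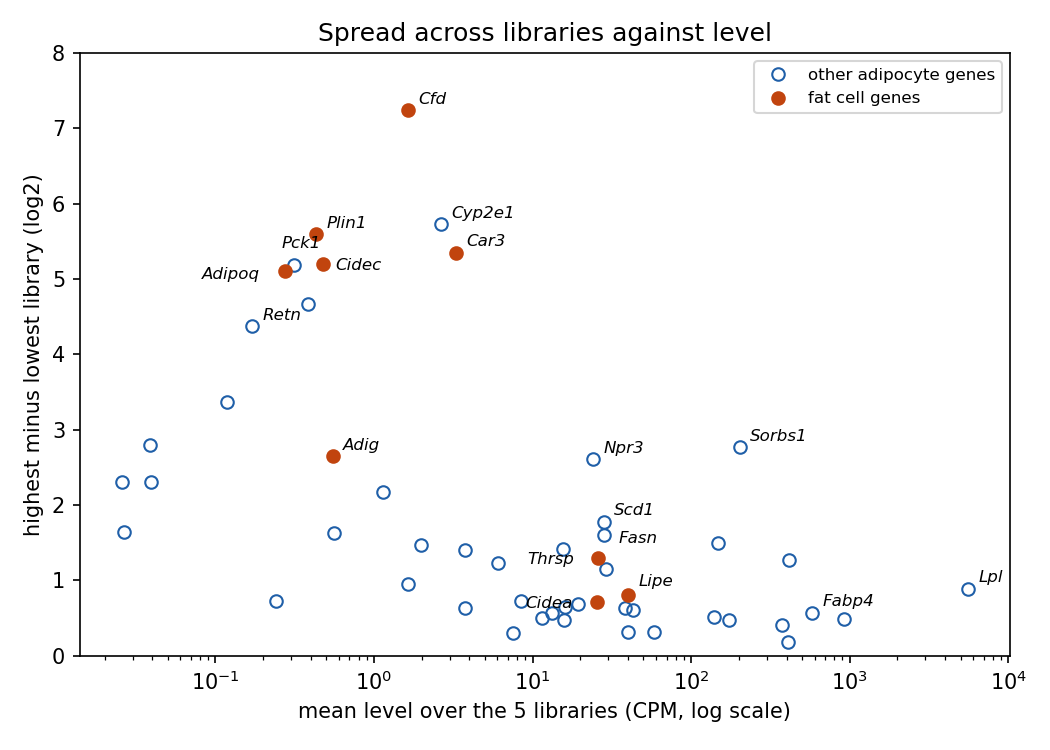
Mean level over the 5 libraries in CPM (horizontal, log axis) against the distance between the highest and the lowest library in log2 CPM with 0.5 added to each count (vertical), for the 9 fat cell genes (orange) and 43 other adipocyte genes (open blue). Cfd spans 7.24, Cyp2e1 5.73, Plin1 5.6 and Car3 5.35, while Lipe spans 0.81 and Cidea 0.71; for genes with a library at 0 counts, such as Cfd and Plin1, the span depends on the 0.5 added.

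The genes that work with each member were read from fixed lists. Among 18 lipid droplet proteins, 16 were tested and 0 passed in any comparison, with a median log2 fold change of oridonin over vector of 0.01. Plin3 and Plin4, droplet coats used outside white fat as well, spanned 1.11 and 1.49 between their lowest and highest library on the log2 scale and were read in every library. Plin4 was at 123 and 131 CPM in the oridonin libraries, 125 and 95.3 CPM in the Tet2+/- vector libraries and 267 CPM in the WT library. Of 20 lipogenesis genes, 19 were tested and 0 passed, with a median of -0.07 for oridonin over vector. Scd1, which desaturates fatty acids, was at 17.6 and 17.8 CPM in the oridonin libraries, 60.5 and 17.8 CPM in the Tet2+/- vector libraries and 26.8 CPM in the WT library. Fasn, fatty acid synthase, was at 18.5 and 26.7 CPM in the oridonin libraries, 45.4 and 15.0 CPM in the Tet2+/- vector libraries and 35.6 CPM in the WT library. Both were highest in vector replicate 1, the library in which Thrsp, a regulator of the same pathway, was lowest.

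Of 16 carbonic anhydrases, 11 had values and 8 were tested, with 0 past the FDR. Car14, a membrane form of heart and other muscle, was the most abundant at 90.4 and 103 CPM in the oridonin libraries, 150 and 130 CPM in the Tet2+/- vector libraries and 84.7 CPM in the WT library. Car4, anchored on capillaries, was at 22.2 and 12.8 CPM in the oridonin libraries, 7.98 and 18.8 CPM in the Tet2+/- vector libraries and 43.5 CPM in the WT library, so it was low where Car3 was high. For the alternative complement pathway, 10 of 11 genes had values and 8 were tested, with 0 past the FDR. C3, the central component of the complement cascade, was at 268 and 321 CPM in the oridonin libraries, 425 and 229 CPM in the Tet2+/- vector libraries and 327 CPM in the WT library. The adiponectin receptors were read in all hearts, with Adipor1 at 180 and 187 CPM in the oridonin libraries, 183 and 203 CPM in the Tet2+/- vector libraries and 215 CPM in the WT library. Adipor2 was at 87.2 and 83.8 CPM in the oridonin libraries, 84.8 and 79.4 CPM in the Tet2+/- vector libraries and 140 CPM in the WT library, with a log2 fold change of -0.76 for vector over WT (SE 0.2, limma adjusted p = 0.417). In that list of 4, 0 genes passed the FDR, and 1, Adipor2, was lower at an unadjusted p under 0.05 in each comparison with WT.

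Genes whose profile over the 5 libraries was most like the sum of all 9 were found by the root mean square distance of centred log2 CPM among 13148 genes. That sum is dominated by Lipe, Cidea and Thrsp, and the nearest were Ndufv1 at 0.022, Pcbp4 and Cenpb at 0.024 and Gpd1 at 0.025. Ndufv1 encodes a subunit of respiratory complex I and Gpd1 a glycerol phosphate dehydrogenase. With the sum of the 5 scarce genes, a choice made after the values were seen, the nearest were Cyp2e1 at 0.129, Retn at 0.559, Rnaset2a at 0.692 and Plagl1 at 0.7. The next neighbours lay at 0.758 or more, so Cyp2e1 was the nearest by a wide gap. Cyp2e1 differed 46.1-fold between vector replicates 1 and 2 (15.4 to 226) and 24.6-fold between oridonin replicates 2 and 1 (6.45 to 209).

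Markers of other tissues near the heart were read beside these values, and their part in the result was not tested. The 12 atrial genes summed to 78.8 and 72.9 CPM in the oridonin libraries, 1199 and 146 CPM in the Tet2+/- vector libraries and 111 CPM in the WT library. Myl7, the atrial myosin light chain, had 1 and 1 counts in the oridonin libraries, 2739 and 1 in the Tet2+/- vector libraries and 0 in the WT library. Vector replicate 1 stood apart in Myl7. Oridonin replicate 2, with the second highest sum of the 5 scarce genes, had 1 count of Myl7 and 1 of Sln, another atrial gene. All 12 atrial genes had at least 10 counts in a library. Of these, 6 were higher in both vector replicate 1 and oridonin replicate 2, and 0 were so by 4-fold. Whether fat near the atria was sampled with either heart was not tested. The 17 measured mesothelial and epicardial genes of 20 summed to 544 and 586 CPM in the oridonin libraries, 746 and 456 CPM in the Tet2+/- vector libraries and 632 CPM in the WT library. That list includes C3, the complement gene given above, which made up a large part of each sum, so the sum does not stand for mesothelium alone. Of the listed genes, 11 had at least 10 counts in a library. Of these, 4 (36.4%) were higher in both vector replicate 1 and oridonin replicate 2, against 44.7% of all genes. Of the 11, 1 (9.09%), Pkhd1l1, was at least 4-fold higher in both, like most of the 5 scarce genes, against 0.302% of all genes. It had 1 and 38 counts in the oridonin libraries, 70 and 10 in the Tet2+/- vector libraries and 16.7 in the WT library. Other markers were scarcer, with Msln at 4 and Upk3b at 7 counts in vector replicate 1 and both at 0 counts in the other 4 libraries. The 13 measured nerve and glia genes of 14 summed to 65.2 and 65.9 CPM in the oridonin libraries, 99.6 and 64.4 CPM in the Tet2+/- vector libraries and 72.5 CPM in the WT library. Of their 10 with at least 10 counts, 3 (30.0%) were higher in both libraries. The 6 measured conduction system genes of 7 summed to 37.7 and 50.1 CPM with oridonin, 52.5 and 25.8 CPM in Tet2+/- vector and 48.05 CPM in WT. Of their 5 with at least 10 counts, 5 (100%) were higher in both, and 0 were so by 4-fold.

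**Figure D4:**
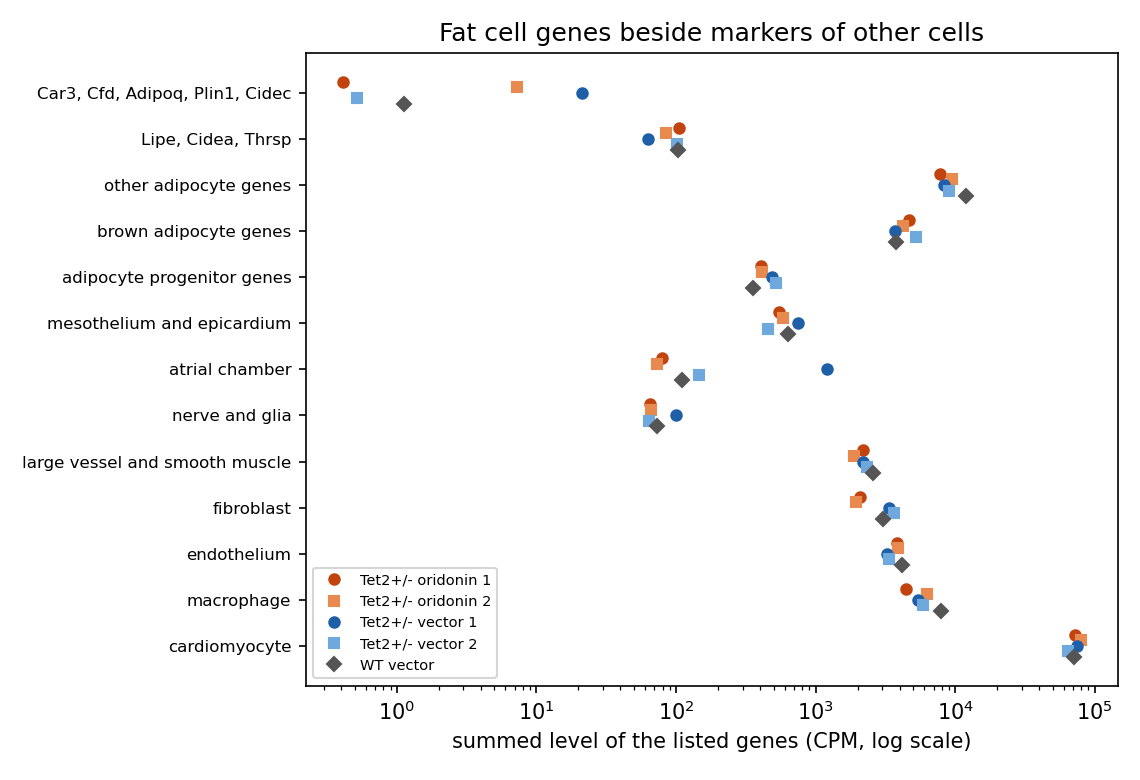
Summed CPM of gene lists (horizontal, log axis), with a row for each list and a point for each library. The atrial sum stands out in vector replicate 1, at 1199 CPM, while the sum of Car3, Cfd, Adipoq, Plin1 and Cidec is high in both vector replicate 1 and oridonin replicate 2.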

How the data were processed

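Poly-A RNA from hearts was prepared for sequencing with NEBNext Ultra reagents. That is per the labels' protocols, which do not state whether strand was kept. The build was mm10 per the submitters' processing notes. No aligner, counter or annotation is named in what was used here. The table was deposited by the authors, with log2 values. By the values themselves these are log2 of the count plus 0.5, scaled to CPM. All columns matched a sample and 0 were left over.

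Each Tet2+/- column held 0.75 of its own log2 value and 0.25 of the other replicate's. It was unmixed as 1.5 times its own value minus 0.5 times the other's. No source used here says how the mix arose. Limma 3.58.1 in R 4.3.3 (trend, robust empirical Bayes) was fitted to log2 CPM of all 5 libraries, unmixed in the 4 Tet2+/- columns and as deposited in the WT column, with group as the only term and Benjamini-Hochberg adjustment over 12734 genes. The fit was tested on simulated data, as a check of the code only. The simulated replicates did not differ as these libraries do, so that check does not bear on the calls given here. Ratios between libraries have exact intervals on the counts, with 3 counts standing for 0.

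All 9 genes were named. From other lists, genes came from the 4 highest by mean CPM and the 4 with the widest log2 range; single further genes were named after their values were seen. The genes and the 23 lists were chosen with earlier results of these data known. Positions are from GENCODE M21 on GRCm38, which is mm10, and promoters from RefSeq. Replicate numbers were not used to pair the libraries in the main fit. Alternatives were the deposited values, voom, no filter on low values, a prior count of 2, another scaling, a replicate block and leaving out each library.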

Additional observations from a re-analysis of the deposited data

How the results depend on the processing

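These alternatives tested 3 to 5 of the 9 genes, or all 9 without the filter on low values. With 1 exception, 0 of them passed the FDR in any comparison. Under a crossed pairing, 1 of 5 passed in Tet2+/- vector against WT, where 432 of all 12734 genes did. That pairing joins vector replicate 1 with oridonin replicate 2, the libraries in which the 5 scarce genes were high, so nothing is read from this call. Over all genes, voom, no filter, a prior count of 2 and median-of-ratios scaling also called 0 in each comparison. That scaling moved libraries by -0.104 to 0.076 log2. The deposited, blended values, in which replicates are pulled together, called 76 genes in oridonin against vector, 2312 in Tet2+/- vector against WT and 996 in oridonin against WT. Same-numbered libraries deviated in opposite directions (r = -0.296 over 12734 genes). With 2 libraries in each Tet2+/- group, this cannot decide whether the numbers pair samples. A replicate block called 9, 10 and 6 genes in the same order of comparisons. With the numbers crossed in the oridonin group, chosen after seeing the data, the block called 44, 432 and 184. Leaving out 1 library called 0 to 40 genes in oridonin against vector (40 without oridonin replicate 2, 13 without oridonin replicate 1, 5 without vector replicate 1, 3 without vector replicate 2 and 0 without WT). It called 2 to 127 in Tet2+/- vector against WT (127 without oridonin replicate 2, 72 without oridonin replicate 1, 3 without vector replicate 1 and 2 without vector replicate 2). It called 0 to 26 in oridonin against WT (26 without oridonin replicate 2, 9 without oridonin replicate 1, 1 without vector replicate 1 and 0 without vector replicate 2). The cause of these moves was not tested. The log2 fold change of all 9 genes summed was 0.087 for oridonin over vector (-0.06 to 0.234 without 1 library). Depth limits Adipoq, Plin1, Cidec and Adig, with at most 24 counts in any library.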
